A study of Mus musculus with 2 samples.

Results

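Levels of 7 genes associated with resting T cells, Dapl1, Igfbp4, Tespa1, Pdlim4, Satb1, Foxp1 and Txk, were followed in CD8 and CD4 T cells from an untreated and a drug-treated mouse melanoma model. They are 7 of the 15121 genes in the deposited table, and they were listed because earlier work on these same libraries had found them lower after treatment. The genes were thus chosen by the difference in level between the 2 libraries, which is given here as a description without a test. The description "lost under treatment" held for Dapl1 and Txk in CD8 cells of either state and in all CD4 cells, and for Tespa1 in Lef1/Tcf7-positive CD8 cells and in all CD4 cells. Tespa1 was also lower in treated myeloid cells. Satb1 went against it, and was higher in treated cells once cells of the same state were compared. Pdlim4 was lower in treated CD4 cells. It was scarce in CD8 cells, where a smaller share of cells held it than of myeloid cells. Igfbp4 was lower in treated CD4 cells and in treated Lef1/Tcf7-positive CD8 cells, while its direction in Lef1/Tcf7-negative CD8 cells rested on few cells. Foxp1 was lower over all treated CD8 cells. In Lef1/Tcf7-positive CD8 cells its level was not lower, although a smaller share of treated cells held its transcript.

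Both libraries came from T cells of the NILER model on day 5, a syngeneic melanoma derived from the mouse line NIL, which carries Nras Q61R and was exposed to ultraviolet light to raise its mutational load. The control library had no treatment, and the other came from the combination of trametinib, an inhibitor of the kinase MEK, and BGB-283, an inhibitor of RAF kinases. There was 1 library per group, so the conditions have no replicates, and a difference between drugs cannot be told apart from a difference between animals, sorts or library preparations. The labels used here do not state doses, the number of animals, their age or sex, or how the T cells were purified.

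After quality filters 8671 untreated and 7355 treated cells were kept, with library medians of 6155 and 5988 unique molecular identifiers (UMIs, one per captured mRNA) per deposited cell. A CD8 cell held a UMI of a T cell receptor component and of Cd8a or Cd8b1 and none of Cd4 or Foxp3. A CD4 cell held one of Cd4 and none of Cd8a, Cd8b1 or Foxp3. These gates gave 4595 untreated and 4958 treated CD8 cells, and 984 and 498 CD4 cells. A cell with at least 1 UMI of Lef1 or Tcf7, which encode transcription factors of resting and stem-like T cells, was called Lef1/Tcf7-positive. Of the CD8 cells, 3385 untreated cells (73.7%, 95% Clopper-Pearson interval 72.4 to 74.9%) and 1155 treated cells (23.3%, 22.1 to 24.5%) were positive. When every cell was thinned to 2000 UMIs, which left out 70 and 85 shallower cells, these shares were 50.03% and 14.2%. Of the CD4 cells, 734 untreated (74.6%) and 337 treated (67.7%) were positive, or 59.0% and 49.5% after thinning without 28 and 17 shallower cells. The libraries shared 35 cell barcodes, of which 11 untreated and 18 treated CD8 cells and 4 and 2 CD4 cells carried one. Igfbp4 is given with and without them, since its ratio moved by over 1.5 times in 3 sets of cells.

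A naive T cell has left the thymus and has not yet met its antigen. It stays quiescent under transcription factors such as Lef1, Tcf1 (the product of Tcf7), Foxo1 and Klf2, recirculates through lymph nodes, and keeps its T cell receptor signalling machinery ready. On activation much of this programme is turned down, and part of it returns in memory and stem-like cells. Among the 7 genes, Satb1 and Foxp1 encode nuclear regulators, Txk and Tespa1 act near the T cell receptor, Pdlim4 encodes a cytoskeletal adaptor, Igfbp4 a secreted binding protein for insulin-like growth factors, and Dapl1 a small protein whose transcript is used as a marker of naive T cells.

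The promoter windows of the genes were read from RefSeq to show the sequence upstream of the listed genes. Windows of 300 bases (250 before to 50 after a transcript start, build GRCm38.p6) were found for 6 of the 7 genes, 13 windows in all, and Tespa1 had none. Each was searched on both strands for CTTTGAT (TCF and LEF core), TGTTTAC (forkhead core), CCACACCC (KLF core) and CAGGAAGT (ETS core), which do not overlap in these windows. The TCF and LEF letters were in none of the 13 windows and in 3.73% of all 32851 windows. The forkhead letters were in Dapl1 and in 3.65% of all windows, the KLF letters in Igfbp4 and in 3.56%, and the ETS letters in 1 of the 5 Satb1 windows and in 3.33%. The 3 windows with a match are printed 5′ to 3′ on the gene's strand, with the matched letters in capitals. Dapl1 (chr2:59484403-59484702, + strand) and Igfbp4 (chr11:99040994-99041293, + strand) hold the reverse complement of the motif, and the Satb1 window (chr17:51826539-51826838, - strand) holds it as written.
Dapl1: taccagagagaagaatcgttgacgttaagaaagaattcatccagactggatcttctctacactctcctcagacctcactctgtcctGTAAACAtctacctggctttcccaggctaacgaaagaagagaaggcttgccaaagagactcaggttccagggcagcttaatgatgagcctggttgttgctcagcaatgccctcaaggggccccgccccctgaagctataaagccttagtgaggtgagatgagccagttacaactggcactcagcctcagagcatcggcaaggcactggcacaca
Igfbp4: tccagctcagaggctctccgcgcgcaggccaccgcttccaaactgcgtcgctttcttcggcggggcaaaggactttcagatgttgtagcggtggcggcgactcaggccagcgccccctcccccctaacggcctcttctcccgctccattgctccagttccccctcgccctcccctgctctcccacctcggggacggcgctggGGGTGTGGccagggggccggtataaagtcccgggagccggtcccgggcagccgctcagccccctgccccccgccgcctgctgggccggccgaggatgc
Satb1: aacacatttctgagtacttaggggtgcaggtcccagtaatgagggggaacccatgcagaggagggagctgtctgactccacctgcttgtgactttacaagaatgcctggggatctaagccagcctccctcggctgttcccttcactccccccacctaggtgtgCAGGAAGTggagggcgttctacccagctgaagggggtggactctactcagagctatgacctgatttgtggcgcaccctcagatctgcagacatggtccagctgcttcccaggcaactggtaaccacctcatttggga
A match is a run of letters and was not tested as a binding site.

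Levels are UMIs per 1000000 UMIs of a set of cells (CPM), with the log2 ratio of treated to untreated and its exact 95% interval, which covers counting error only. In all CD8 cells 4 of the 7 genes (Dapl1, Tespa1, Txk and Pdlim4) were at least 1.5-fold lower in the treated library, where 15.8% of the 5854 measured genes were that much lower and 30.7% that much higher. In all CD4 cells 5 genes were at least 1.5-fold lower (all but Satb1 and Foxp1) against 19.6% of 5913 measured genes, and Satb1 was at least 1.5-fold higher against 24.4%. Because these contrasts chose the genes, nothing is read from the counts. The median log2 ratio of all measured genes was 0.16 in CD8 cells and 0.02 in CD4 cells, and that of the 7 genes was -1.64 and -1.65.

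In Lef1/Tcf7-positive CD8 cells 5 genes were at least 1.5-fold lower (18.9% of measured genes) and none that much higher (26.7%), and in Lef1/Tcf7-negative CD8 cells 4 were lower (19.8%) and Satb1 was higher (30.1%). In positive CD4 cells 5 were lower (22% of measured genes) and Satb1 was higher (24%), and in negative CD4 cells 4 were lower (22.2%) and Satb1 was higher (18%). Just inside the 1.5-fold line lay Tespa1 in negative CD4 cells, 1.62-fold lower, and just outside it lay Igfbp4 and Foxp1 in all CD8 cells, 1.45-fold and 1.44-fold lower. A minimum of 50 UMIs and 20 CPM in 1 library was passed by 6 of the genes in all CD8 and in positive CD8 cells, by all 7 in all CD4 and in positive CD4 cells, and by 4 in either negative set. The shares are over genes that passed this minimum, whereas some of the genes counted as lower did not pass it. These were Pdlim4 in all CD8 and in positive CD8 cells, Tespa1, Dapl1 and Pdlim4 in negative CD8 cells, and Dapl1 and Pdlim4 in negative CD4 cells, so that Txk alone was lower among the 4 that passed in negative CD8 cells.

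**Figure D1:**
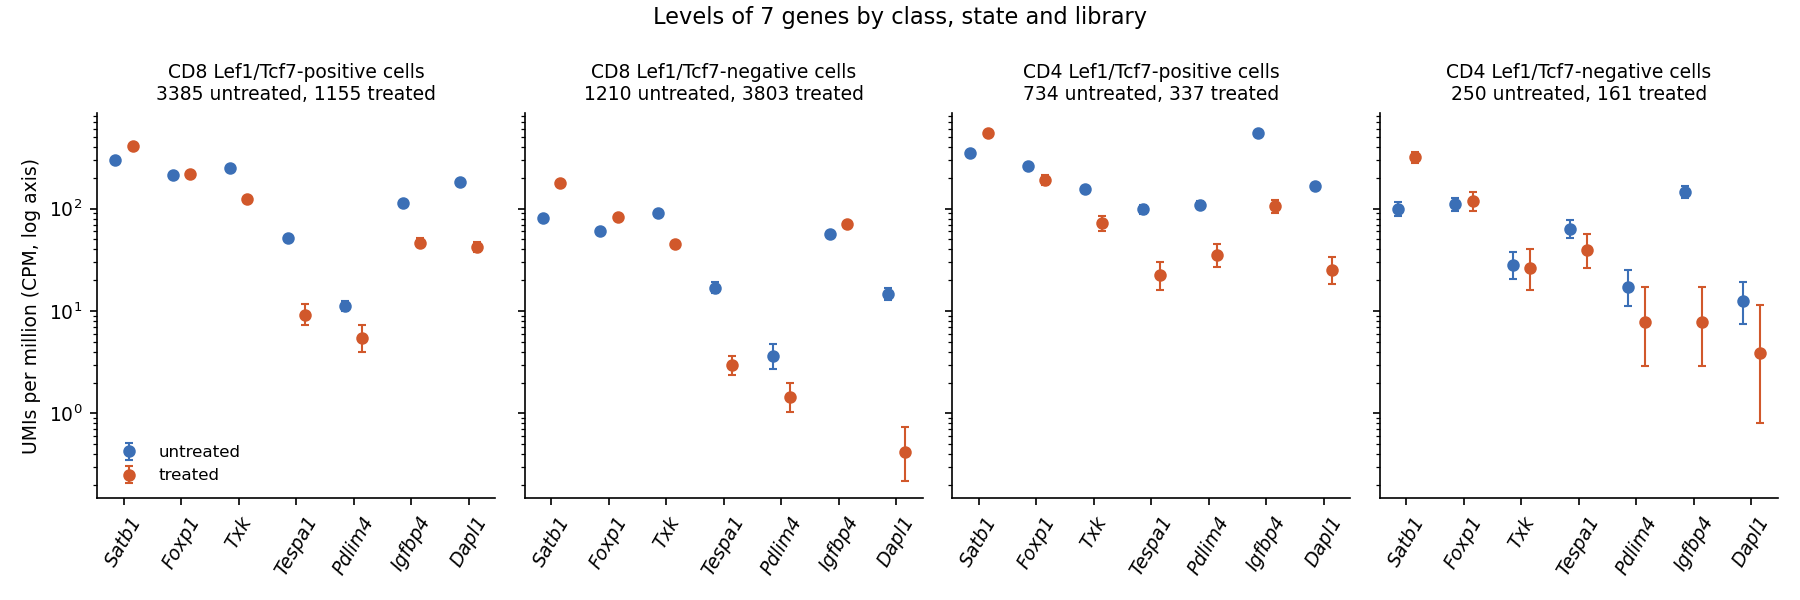
Level of each gene (CPM, log axis) in the untreated (blue) and treated (orange) library for positive and negative CD8 and CD4 cells, with exact 95% Poisson bars for counting error. Dapl1 and Tespa1 sit lower in the treated library in all 4 panels, and Satb1 sits higher in all 4, although in negative CD4 cells the bars overlap for Dapl1 (19 and 3 UMIs) and for Tespa1 (97 and 30 UMIs).

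Satb1 encodes a chromatin organiser that shapes gene programmes in developing and naive T cells. In all CD8 cells its level was 226 CPM untreated and 231 CPM treated, a log2 ratio of 0.03 (-0.01 to 0.07), which became -0.13 when ratios were centred on the median gene. Within states the libraries separated. In positive CD8 cells it was 298 CPM untreated and 409 CPM treated (log2 ratio 0.46, 0.40 to 0.51). In negative CD8 cells it was 81.9 CPM untreated and 180 CPM treated (1.13, 1.04 to 1.23). Treated cells were thus higher in both states while the level over all CD8 cells barely differed.

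In CD4 cells Satb1 was higher in the treated library in every set. Its level was 282 CPM untreated and 476 CPM treated in all CD4 cells (log2 ratio 0.76, 0.65 to 0.86). It was 348 and 545 CPM in positive cells (0.64, 0.53 to 0.76), and 99.3 and 316 CPM in negative cells (1.67, 1.37 to 1.97). The share of cells with a Satb1 UMI after thinning went the same way in negative CD8 cells, at 17.7% untreated and 29.8% treated, and was 49.0% and 53.3% in positive CD8 cells. Myeloid cells, gated without T cell UMIs, held a Satb1 UMI in 2.70% and 5.36% of thinned cells. Median depth was 11186 and 7771 UMIs in the myeloid cells, 9625 and 6623 in negative CD8 cells, and 6290 and 6005 in positive CD8 cells.

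Foxp1 encodes a forkhead repressor known to hold naive T cells in quiescence. In all CD8 cells it was 163 CPM untreated and 113 CPM treated, a log2 ratio of -0.52 (-0.58 to -0.47). Within positive CD8 cells the levels were 214 and 217 CPM (0.02, -0.06 to 0.10), which became -0.04 when centred on the median gene. In negative CD8 cells they were 59.9 and 83.5 CPM (0.48, 0.37 to 0.59). The share of thinned cells with a Foxp1 UMI was 40.5% (38.8 to 42.2%) and 35.5% (32.7 to 38.3%) in positive CD8 cells. It was 13.99% and 14.9% in negative CD8 cells. In myeloid cells, which held Foxp1 at 104 and 153 CPM, it was 18.7% and 21.4%, above the negative CD8 shares. Those shares are not read as expression, nor as its absence, since a class that holds the transcript sets no floor. Where shares of other genes are set aside against myeloid cells below, absence is not claimed either. The lower level over all treated CD8 cells was not seen in positive cells, where the ratio ran from -0.16 to 0.17 over 13 other settings. The share of positive cells with a UMI was nonetheless lower in the treated library. In negative cells the sign of the ratio depended on the setting (-0.63 to 0.54). In CD4 cells Foxp1 was 221 CPM untreated and 169 CPM treated overall (-0.38, -0.55 to -0.23), 260.5 and 190 CPM in positive cells (-0.45, -0.63 to -0.28), and 110 and 119 CPM in negative cells (0.11, -0.28 to 0.48).

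Cycling cells moved with these values. At least 2 of the G2/M genes listed as cycling markers were present in 42.0% of untreated and 11.3% of treated negative CD8 cells, and in 11.7% and 6.67% of positive CD8 cells. Without such cells the negative CD8 ratio of Satb1 was 0.56 and that of Foxp1 was -0.11. With every cell thinned to 2000 UMIs and the state called on the thinned UMIs, those ratios were 0.05 and -0.63. Thinning moves cells that lost their Lef1 and Tcf7 UMIs into the negative set, which then held 2261 untreated and 4182 treated cells.

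Txk encodes a TEC-family tyrosine kinase that acts downstream of the T cell receptor. Its level in all CD8 cells was 196 CPM untreated and 62.9 CPM treated (log2 ratio -1.64, -1.71 to -1.57). In positive CD8 cells it was 248 and 123 CPM (-1.01, -1.10 to -0.91), and in negative CD8 cells 91.1 and 45.6 CPM (-1.0, -1.11 to -0.89). The treated level was close to 2-fold lower in either state and 3.12-fold lower over all CD8 cells. In CD4 cells it was 121 CPM untreated and 58.3 CPM treated overall (-1.06, -1.32 to -0.80), and 155 and 72.0 CPM in positive cells (-1.11, -1.39 to -0.83). In negative CD4 cells, where the files hold 43 and 20 Txk UMIs, the levels of 28.1 and 26.1 CPM did not differ beyond counting error (-0.10, -0.95 to 0.69).

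Tespa1 encodes a protein of thymocytes and T cells that links the receptor to calcium release by binding inositol trisphosphate receptors. It was 40.1 CPM untreated and 4.36 CPM treated in all CD8 cells (log2 ratio -3.20, -3.45 to -2.97). In positive CD8 cells it was 51.7 and 9.24 CPM (-2.48, -2.84 to -2.15), and in negative CD8 cells 16.96 and 2.96 CPM (-2.52, -2.89 to -2.15). The 2 states thus gave nearly the same ratio. After thinning, a Tespa1 UMI was present in 11.9% of untreated and 2.18% of treated positive CD8 cells, and in 4.95% and 0.778% of negative CD8 cells. In myeloid cells the thinned shares were 5.81% and 0.893%, so the shares in negative CD8 cells lay no higher than in that class and are not read as expression. Myeloid cells themselves held Tespa1 at 14.4 CPM untreated and 1.82 CPM treated (122 and 6 UMIs), somewhat under the levels in negative CD8 cells. A lower treated level was thus not particular to T cells.

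In CD4 cells Tespa1 was 89.2 CPM untreated and 27.4 CPM treated (log2 ratio -1.70, -2.09 to -1.34). In positive CD4 cells it was 98.6 and 22.3 CPM (-2.14, -2.65 to -1.67), and in negative CD4 cells 63.4 and 39.2 CPM (-0.69, -1.34 to -0.09). In the treated library Tespa1 was 0.570 times as high in positive as in negative CD4 cells (0.346 to 0.947), from 40 and 30 UMIs. In the untreated library the same fold was 1.56 (1.24 to 1.96).

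Pdlim4 encodes a PDZ and LIM domain protein that binds actin-associated partners. In CD8 cells it was low and under the minimum of 20 CPM, at 8.65 CPM untreated and 2.33 CPM treated (log2 ratio -1.89, -2.25 to -1.55). It was 11.2 and 5.42 CPM in positive CD8 cells (-1.04, -1.53 to -0.59), and 3.61 and 1.45 CPM in negative CD8 cells (-1.32, -1.94 to -0.70). A Pdlim4 UMI was present in 2.00% of untreated and 1.14% of treated positive CD8 cells after thinning, below the 5.39% and 5.80% of myeloid cells, so these shares are not read as expression by CD8 cells. CD4 cells held more of it, at 84.5 CPM untreated and 26.99 CPM treated overall (-1.65, -2.03 to -1.28) and 109 and 35.2 CPM in positive cells (-1.63, -2.04 to -1.25). In positive CD4 cells the thinned shares were 18.9% and 7.16%. The interval of the treated share (4.64 to 10.5%) overlapped that of treated myeloid cells (3.13 to 9.72%), and all treated CD4 cells were at 5.61%. The treated CD4 shares are therefore not read as expression. In negative CD4 cells 26 and 6 UMIs gave a log2 ratio of -1.12 whose interval (-2.69 to 0.20) held 0.

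Igfbp4 encodes a secreted protein that binds insulin-like growth factors, and its transcript is found in naive T cells and also in fibroblasts and endothelium. In CD4 cells it was 442 CPM untreated and 76.3 CPM treated (log2 ratio -2.53, -2.75 to -2.32). In positive CD4 cells the levels were 549 and 106 CPM (-2.38, -2.60 to -2.17), and in negative CD4 cells 145 and 7.84 CPM (-4.21, -5.67 to -3.06). In all CD8 cells they were 94.5 and 65.0 CPM (-0.54, -0.61 to -0.47), and in positive CD8 cells 113 and 46.6 CPM (-1.28, -1.44 to -1.13). In negative CD8 cells the order turned, with 56.9 CPM untreated and 70.3 CPM treated (0.31, 0.19 to 0.42).

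A few cells held most Igfbp4 UMIs of the negative sets. In treated negative CD8 cells 7 of 3803 cells had at least 5 Igfbp4 UMIs and together held 96.1% of them, and 1 cell held 821. Of these 7 cells, 6 also held UMIs of at least 2 genes of a list of stromal and tumour markers (collagens, Sparc, pigment and endothelial genes), and their median depth was 50518 UMIs against 6623 in the set. In untreated negative CD4 cells 1 cell held 170 of 222 UMIs. In untreated negative CD8 cells 10 cells had at least 5 UMIs and held 87.8% of them, 7 of the 10 with such markers. In untreated positive CD8 cells the UMIs were spread over more cells, since 863 of 3385 cells held one and 127 had at least 5. Without cells holding 2 such markers, a step added after the values were seen, Igfbp4 in negative CD8 cells was 8.38 CPM untreated and 2.94 CPM treated. The same step gave 76.5 and 17.4 CPM in positive CD8 cells, 336 and 52.7 CPM in positive CD4 cells, and 29.9 and 7.84 CPM in negative CD4 cells. All 4 sets were then lower in the treated library. Without cells whose barcode occurred in both libraries, the log2 ratio was -2.88 in negative CD8 cells, -2.52 in all CD8 cells and -2.16 in negative CD4 cells. What the cells with many Igfbp4 UMIs are was not tested.

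**Figure D2:**
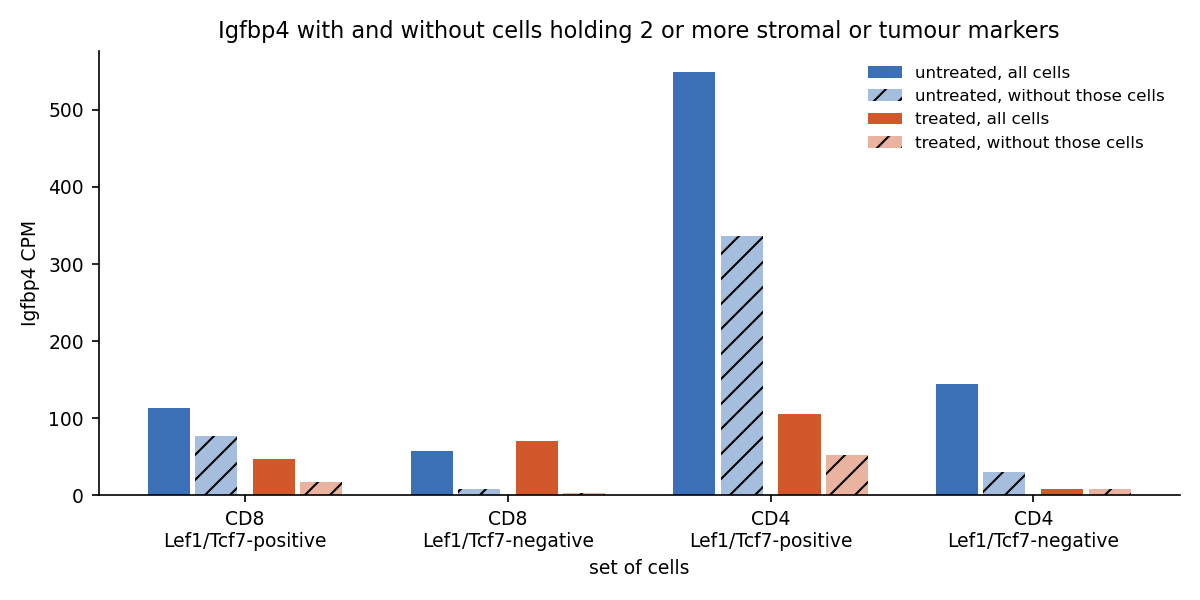
Igfbp4 level (CPM, linear axis from 0) in the untreated (blue) and treated (orange) library by set of cells, for all cells (solid) and without cells that hold UMIs of 2 or more stromal or tumour markers (hatched). In negative CD8 cells nearly all of the signal goes with those cells, while positive CD4 cells keep 336 of 549 CPM untreated and 52.7 of 106 CPM treated.

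The share of cells with an Igfbp4 UMI is less affected by single cells. After thinning it was 13.9% untreated and 3.93% treated in positive CD8 cells, and 32.3% and 7.16% in positive CD4 cells. In negative CD8 cells it was 2.05% and 0.858%. Myeloid cells held an Igfbp4 UMI in 13.5% and 9.82% of thinned cells, at levels of 652 and 1084 CPM. The negative CD8 shares and the treated positive shares of either class lay under it and are not read as expression. The untreated positive CD8 share was about level with it, and the untreated positive CD4 share lay above it.

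Dapl1 had the lowest ratio of the 7 genes in all CD8 cells. Its level was 127 CPM untreated and 9.76 CPM treated there (log2 ratio -3.71, -3.86 to -3.55), a 13.0-fold lower level. In positive CD8 cells it was 183 and 42.4 CPM (-2.11, -2.28 to -1.96), or 4.33-fold lower. In negative CD8 cells 217 untreated UMIs gave 14.8 CPM and 12 treated UMIs gave 0.423 CPM (-5.13, -6.10 to -4.29). Dapl1 was thus lower in either state of CD8 cells, with the smaller difference in positive cells. The negative ratio rests on 12 treated UMIs and did not pass the minimum, so no order of the states is read from it. In CD4 cells the ratio was -2.72 in positive and -1.66 in negative cells, where the interval held 0.

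The shares of CD8 cells with Dapl1 were likewise lower in the treated library in either state. After thinning, 24.1% of untreated (22.7 to 25.6%) and 6.72% of treated (5.34 to 8.33%) positive CD8 cells held a Dapl1 UMI, against 2.47% and 0.107% of negative CD8 cells. No thinned myeloid cell held one, 0 of 482 untreated and 0 of 224 treated, which allows a share of up to 0.622% and 1.34%, taking 3 cells as the limit that a count of 0 leaves. The treated negative CD8 share was under that limit and is not read as expression. In CD4 cells Dapl1 was 125 CPM untreated and 18.8 CPM treated (log2 ratio -2.73, -3.18 to -2.31), and 165 and 25.1 CPM in positive cells (-2.72, -3.19 to -2.28). In negative CD4 cells 19 and 3 UMIs gave a ratio whose interval held 0 (-1.66, -4.06 to 0.10).

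Positive cells of the libraries could still differ in how much Lef1 and Tcf7 they held. CD8 cells were therefore split into 4 classes by the sum of their Lef1 and Tcf7 UMIs (0, 1, 2, and 3 or more). The top class held 48.8% of untreated and 10.1% of treated CD8 cells. Dapl1 was lower in the treated library in each class, from 14.8 and 0.423 CPM at 0 UMIs to 217 and 71.7 CPM at 3 or more. Txk ran from 91.1 and 45.6 CPM to 270 and 164 CPM, and Tespa1 from 16.96 and 2.96 CPM to 55.2 and 13.2 CPM. Satb1 was higher in the treated library in each class, from 81.9 and 180 CPM to 342 and 563 CPM. Foxp1 was also higher in the treated library in each class, at 59.9 and 83.5 CPM at 0 UMIs and 238 and 275 CPM at 3 or more. Its intervals overlapped at 1 and at 2 UMIs.

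Because a smaller share of treated CD8 cells was positive, the choice of genes by the library contrast favours genes that rise with Lef1 and Tcf7. All 7 genes were higher at 3 or more than at 0 Lef1 and Tcf7 UMIs in the untreated library, and 6 of them in the treated library. The exception was Igfbp4, whose treated level at 0 UMIs came almost wholly from the 7 cells described above. The Igfbp4 classes had no order. Its treated level was 3.77 CPM at 1 UMI and 169 CPM at 2 UMIs, where 1 cell held 239 of 271 UMIs. Pdlim4 was 5.44 CPM untreated and 5.61 CPM treated at 2 UMIs and lower in the treated library in the other classes.

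**Figure D3:**
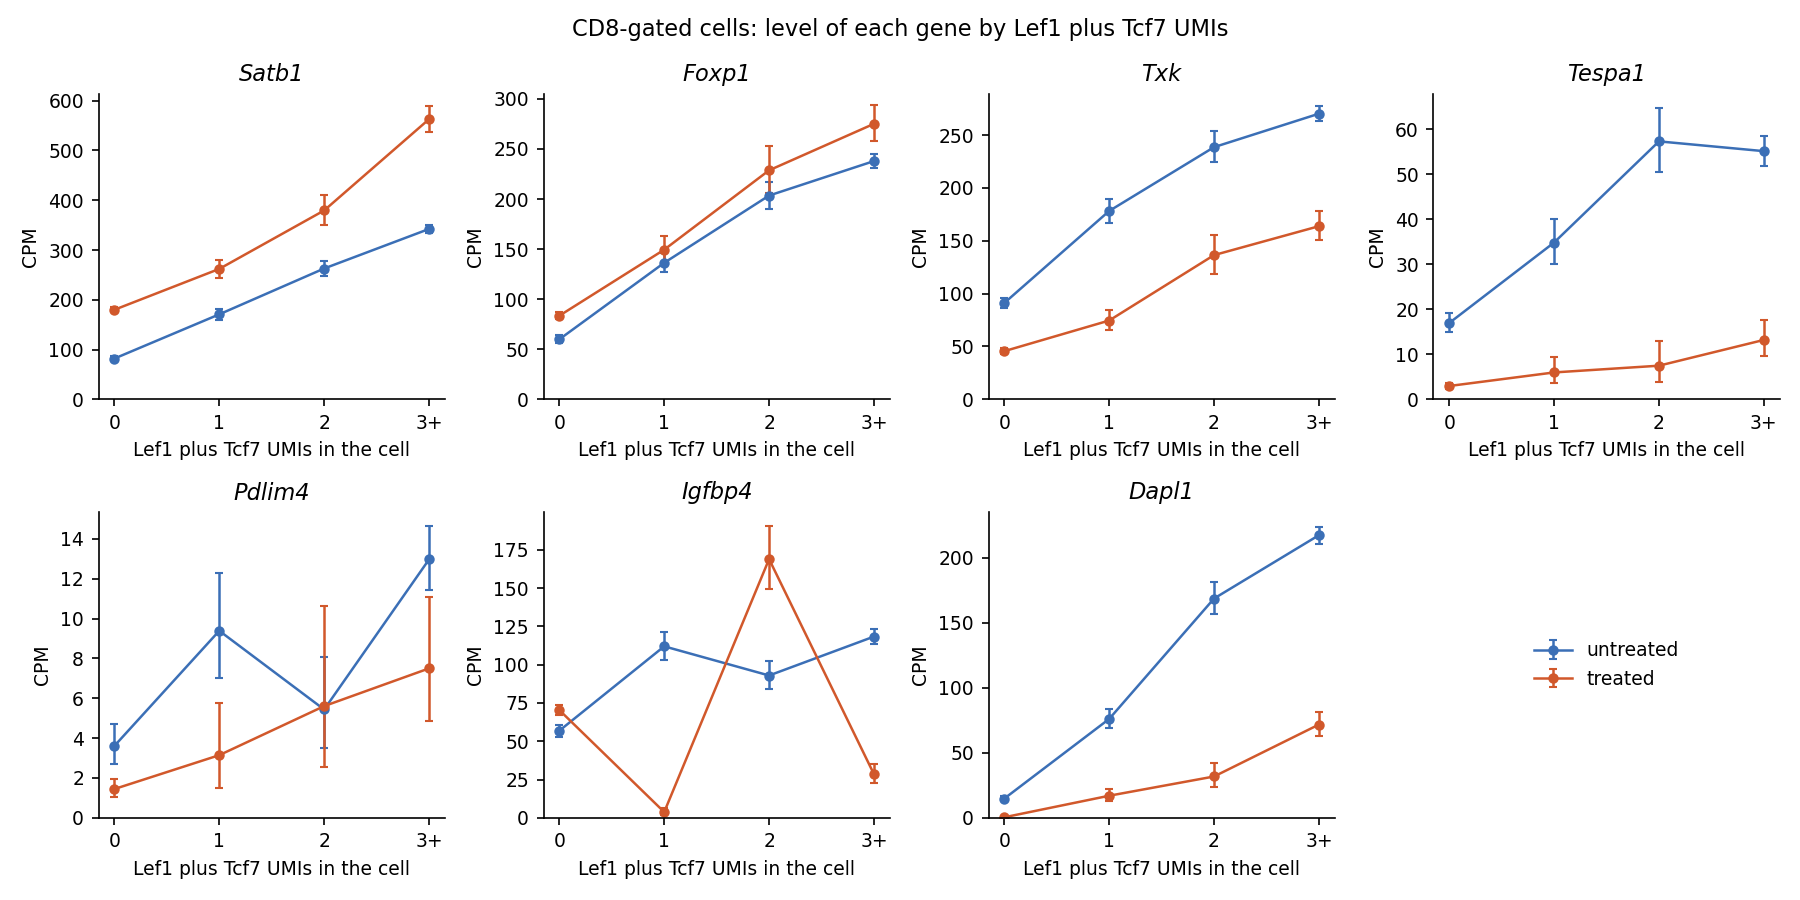
Level (CPM, linear axes from 0) of each gene in CD8 cells against the sum of Lef1 and Tcf7 UMIs in the cell, untreated in blue and treated in orange, with exact 95% Poisson bars. The lines of Dapl1, Txk and Tespa1 stay apart with the untreated library on top, and those of Satb1 with the treated library on top (563 against 342 CPM in the top class). Those of Foxp1 run closer together, with the treated library on top in each class (275 against 238 CPM in the top class).

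The ratio over all CD8 cells was then set beside the ratio that the class shares alone would give. The share of a class here is its share of all UMIs of the CD8 or CD4 cells, not its share of cells. If each class kept its untreated level and only the shares of classes took their treated values, the log2 ratios would be -0.90 for Satb1, -0.87 for Foxp1, -0.69 for Txk, -0.75 for Tespa1, -0.78 for Pdlim4, -0.46 for Igfbp4 and -1.49 for Dapl1. With treated levels at the untreated class shares, they were 0.75 for Satb1, 0.23 for Foxp1, -0.83 for Txk, -2.27 for Tespa1, -0.87 for Pdlim4, -0.83 for Igfbp4 and -1.78 for Dapl1. For Satb1 and Foxp1 the 2 values had opposite signs, and for the other 5 genes both were below 0. In CD4 cells, whose classes differed less, the class shares alone gave log2 ratios between -0.02 and -0.17, and the matched ratios were 0.81 for Satb1, -0.29 for Foxp1, -0.99 for Txk, -1.73 for Tespa1, -1.50 for Pdlim4, -2.28 for Igfbp4 and -2.51 for Dapl1.

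**Figure D4:**
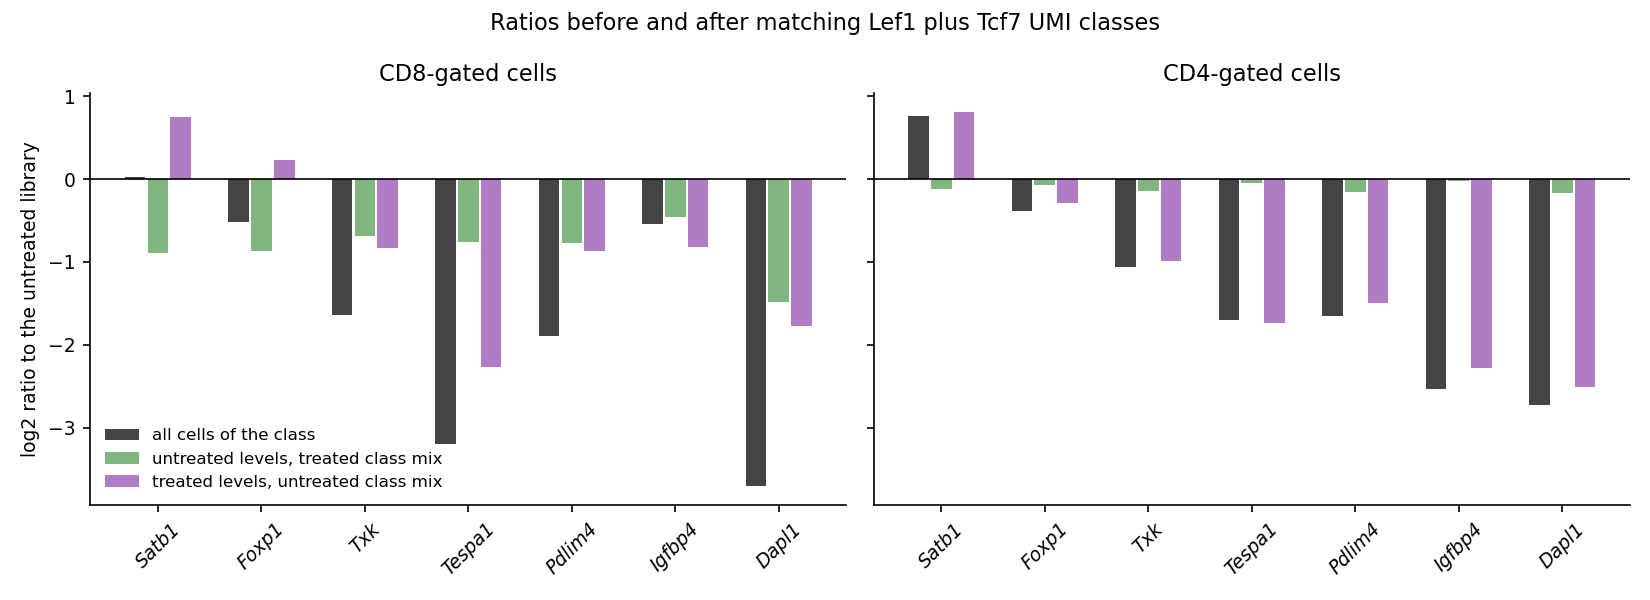
Log2 ratio to the untreated library (axis crosses at 0) for all CD8 or CD4 cells (grey), for untreated levels at the treated class shares (green) and for treated levels at the untreated class shares (purple). Class shares are shares of UMIs. In CD8 cells the purple bars of Satb1 (0.75) and Foxp1 (0.23) point up and those of the other 5 genes point down, the lowest for Tespa1 at -2.27.

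Within a library, the genes were also compared between positive and negative cells. They had been listed as lower in the treated library, where a smaller share of CD8 cells was positive. That choice favours genes that are high in positive cells, so nothing is read from the counts. In untreated CD8 cells all 7 were at least 1.5-fold higher in positive than in negative cells, where 7.96% of measured genes were. The folds ran from 1.99 for Igfbp4 (1.85 to 2.15) to 12.4 for Dapl1 (10.8 to 14.3). In treated CD8 cells 6 of the 7 were (5.17% of measured genes), Igfbp4 being 0.662 times as high in positive cells. Both Igfbp4 folds rested on the negative cells with stromal or tumour markers. Without cells holding 2 such markers, Igfbp4 was 76.5 CPM in positive and 8.38 CPM in negative CD8 cells of the untreated library, and 17.4 and 2.94 CPM in those of the treated library, so it was higher in positive cells of both. The fold of Satb1 was 3.64 untreated (3.43 to 3.87) and 2.27 treated (2.17 to 2.37), and that of Txk was 2.72 and 2.71. In CD4 cells all 7 were at least 1.5-fold higher in the positive state of the untreated library (7.89% of measured genes). In the treated library 6 of 7 were (7.06%), Tespa1 being the exception. These shares are over genes that passed the minimum, which some of the 7 did not reach in either state. Pdlim4 did not reach it in CD8 cells of either library (11.2 and 5.42 CPM in positive cells). Tespa1 fell short in treated CD8 cells (9.24 CPM), and Dapl1 and Tespa1 in treated CD4 cells (45 and 40 UMIs in positive cells). The shares of negative CD8 cells with Tespa1 were not read as expression above, nor was the treated Dapl1 share there.

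The genes overlapped loosely in single cells. In thinned untreated positive CD8 cells the median number of the 7 genes with a UMI was 2, and 8.32% of cells held at least 4 of them. In treated positive CD8 cells the median was 1 and 1.40% held at least 4. For CD4 the shares with at least 4 were 19.6% and 3.58%. Among untreated positive CD8 cells, Dapl1 was found in 44.4% of cells with an Igfbp4 UMI and in 20.9% of cells without one. It was found in 24.3% and 24.1% of cells with and without Tespa1, and in 24.02% and 24.2% of cells with and without Txk. In untreated positive CD4 cells the Dapl1 shares with and without Igfbp4 were 34.2% and 16.9%, those with and without Tespa1 22.5% and 22.5%, and those with and without Txk 31.1% and 18.9%. Dapl1 was thus more frequent in cells with Igfbp4 in both classes, and in cells with Txk in CD4 but not in CD8 cells.

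Other cell classes in the libraries placed these levels. Dapl1 was 11.4 CPM in 554 untreated Foxp3-positive T cells, the regulatory class, and had 0 UMIs in 438 treated ones, which allows a level of up to 0.914 CPM (3 UMIs). Igfbp4 was 108 and 3.35 CPM there, Tespa1 33.2 and 7.31 CPM, and Satb1 81.3 and 144 CPM. The directions of these 4 genes were those seen in CD4 cells. Txk was 556 CPM in 14 untreated and 383 CPM in 45 treated cells of the natural killer gate, above its level in any T cell class. Foxp1 was 464 CPM in 87 treated cells of the B cell gate. T cells without UMIs of Cd4, Cd8 genes or Foxp3 held Dapl1 at 84.2 and 9.67 CPM, Satb1 at 206 and 302 CPM, and Igfbp4 at 803 and 816 CPM. The thinned share of these cells with an Igfbp4 UMI was 22.7% untreated and 9.98% treated, so the share was lower while the level was not.

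**Figure D5:**
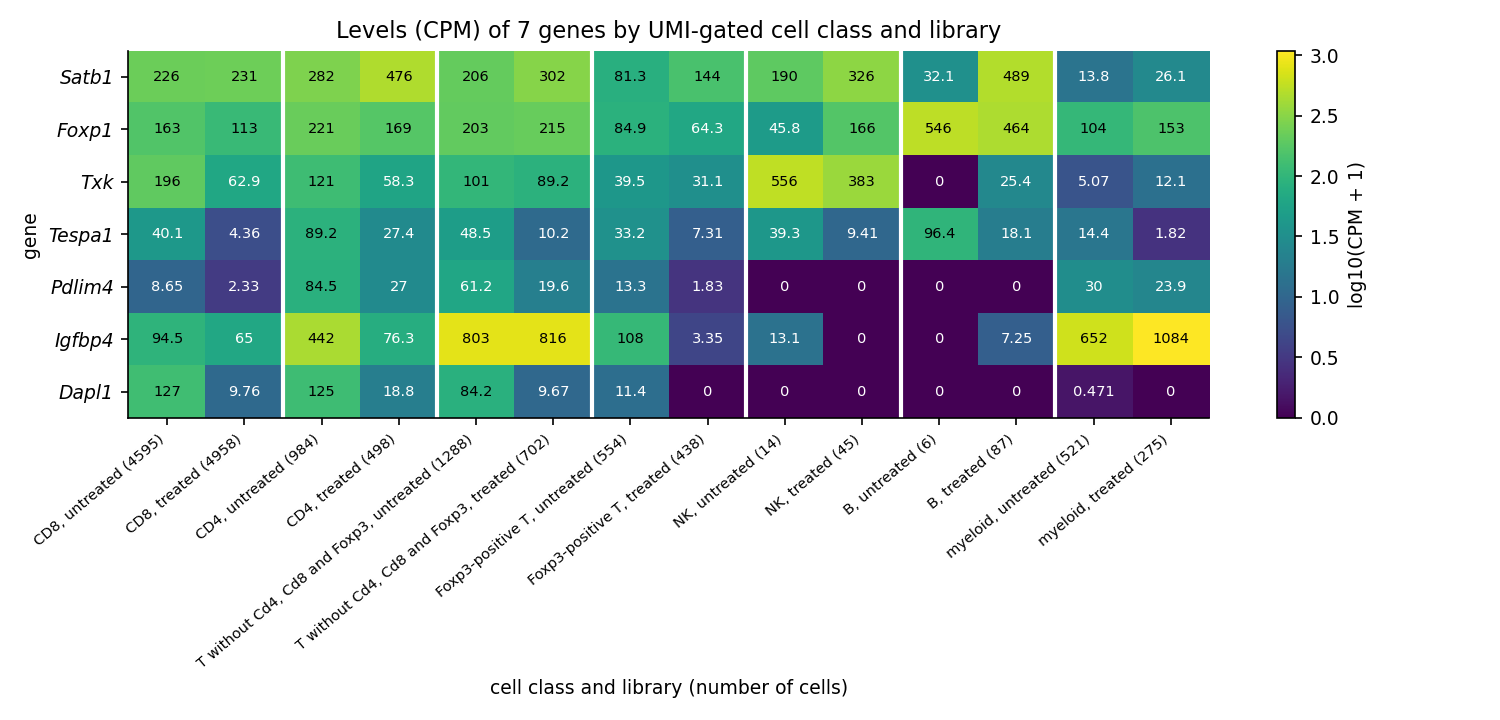
Level (CPM, printed in each cell of the map and coloured by log10 of CPM plus 1) of each gene in UMI-gated cell classes of the untreated and treated library, with the number of cells in parentheses. Dapl1 is highest in CD8 and CD4 cells of the untreated library (127 and 125 CPM), Txk in the natural killer gate (556 and 383 CPM), and Igfbp4 in myeloid cells of the treated library (1084 CPM).

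Markers of other lineages and RNA of other cells moved with the libraries. Summed over 10 myeloid markers, CD8 cells held 1833 CPM untreated and 509 CPM treated, and CD4 cells 3453 and 643 CPM, with none of the 10 at 0. The range over the CD8 and CD4 states was 1774 to 6347 CPM untreated and 508 to 659 CPM treated. Hemoglobin transcripts summed to 591 CPM in untreated and 3.21 CPM in treated CD8 cells. Stromal and tumour markers summed to 77.5 and 163 CPM in CD8 cells. Without cells that held 2 markers of another lineage, the log2 ratio of Satb1 was -0.32 in all CD8 cells and 0.68 in negative CD8 cells, that of Foxp1 -0.87 and 0.13, and that of Igfbp4 -3.39 and -1.85. The part of these markers in the other ratios was not tested.

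Other genes of naive T cells gave a mixed picture. Of 24 such genes 21 were measured in all CD8 cells, of which 13 were at least 1.5-fold lower and 2 higher in the treated library, with a median log2 ratio of -1.14, where 15.8% of all measured genes were that much lower and 30.7% higher. In positive CD8 cells 4 of 23 were lower, close to the 18.9% of all measured genes, and 3 were higher (26.7% of all), with a median of -0.19 against 0.06 for all measured genes. Lef1 and Tcf7, which define that state, were among the 23 (log2 ratios -0.23 and -0.13), so the gate itself constrains these 2 ratios. Klf2, a transcription factor of quiescence and trafficking, was 633 CPM untreated and 74.5 CPM treated in all CD8 cells (log2 ratio -3.09, -3.14 to -3.03), and Treml2, a receptor of the TREM family, 22.2 and 4.39 CPM (-2.34). Foxo1, a forkhead factor that drives naive genes, was higher in the treated library at 66.8 and 132 CPM (0.98, 0.91 to 1.05), as was Ets1, a transcription factor of lymphocytes, at 252 and 416 CPM (0.73). In that same set Satb1 barely differed (log2 ratio 0.03, -0.01 to 0.07). Its higher treated level in CD8 cells was seen within states, where Foxo1 and Ets1 are not compared here.

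The families of the 7 genes were counted in all CD8 cells, where 30.7% of all measured genes were at least 1.5-fold higher and 15.8% lower, with a median of 0.16. Of 8 measured forkhead and Satb relatives, 7 were at least 1.5-fold higher and none was lower (median 0.84). The one that was not was Foxp4, at 18.5 and 24.98 CPM (log2 ratio 0.43), and the others ran from Foxk2 at 0.59 to Foxo3 at 1.25 and Foxj2 at 12.6 and 30.6 CPM (1.28). Of 20 genes near the T cell receptor, 8 were higher and 2 lower (median 0.45), shares not far from those of all measured genes. The adaptor gene Grap2 was 105 and 243 CPM (1.21), and the kinase gene Csk and the exchange factor gene Vav1 were lower (-0.71 and -0.62).

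Against the same shares of all measured genes, of 6 measured relatives or partners of Pdlim4, 2 were lower and none higher (median -0.10). These were Pdlim1 at 61.7 and 22.1 CPM (log2 ratio -1.48) and Pdlim2 at 55.2 and 24.9 CPM (-1.15), while Pdlim5 was at 0.37 and the adhesion gene Zyx at 0.17. Of 3 measured insulin-like growth factor genes 2 were higher, the receptor gene Igf2r at 27.5 and 114 CPM (2.05) and the signalling adaptor gene Irs2 at 14.4 and 129 CPM (3.16), and Igfbp7 was at -0.51. Of 17 effector and memory genes 9 were higher and 3 lower (median 0.68), the lower share being close to the 15.8% of all measured genes. Nr4a3, an orphan receptor gene induced by receptor signals, was 41.2 and 580 CPM (3.81, 3.75 to 3.88) and Irf4 was at 2.08, whereas Prf1, which encodes perforin, was 252 and 82.8 CPM (-1.61) and Cxcr3 was at -1.52.

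The gene pattern most like each of the 7 was sought over 12 groups, made by class (CD8, CD4, Foxp3-positive), state and library, among 7111 genes. These groups share libraries and differ in depth, so the correlations of log2(CPM + 1) are a description. The closest to Dapl1 were Gm2682, Evl and mt-Co3 (Pearson r 0.95, 0.95 and 0.94). Those closest to Foxp1 were Rasgrp2, Prkcq and Gm2682 (0.97, 0.95 and 0.94), and to Satb1 Rps29, Rps27 and Gramd1a (0.97, 0.95 and 0.94). Txk was closest to Rps6, Eef1b2 and Rps20 (0.98, 0.97 and 0.97). For Tespa1 they were Hpcal1, Mmp12 and Scp2 (0.95, 0.95 and 0.93), for Pdlim4 Washc4, Fam69a and AC160336.1 (0.95, 0.93 and 0.89), and for Igfbp4 Cald1, Gja1 and Nr2f1 (0.96, 0.95 and 0.94). Among the 7 themselves Dapl1 was closest to Foxp1 and Txk (0.85 for each), and Satb1 and Tespa1 were least alike (0.08).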

How the data were processed

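Droplet 3' single-cell RNA-seq was analysed for 2 libraries, 1 untreated and 1 treated. The table deposited by the authors covers 15121 genes in 17390 cells. The authors made its natural log values as ln(1 + x), where x is a gene's UMIs scaled to a total of 10000 in every cell, a unit read from the values. Per the submitters' processing notes, Cell Ranger and Seurat handled the reads, and their versions are not given in the sources used here. The build named there, GRCh38, is human while the gene symbols are those of the mouse, and no coordinates were taken from the files. Libraries were told apart by the number that ends each cell name, which matches the sample number and the cell number in the labels. UMIs were recovered from the table, where 38204229 of 38204229 nonzero values came out whole within 0.01, and 95349992 untreated and 58318786 treated UMIs were found.

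Cells under 200 genes or above 10% mitochondrial UMIs were dropped. Scrublet's own doublet threshold called 0.033% of untreated and 0.013% of treated cells, too few to be usable, and the top 5% of scores in each library (425 and 365 cells) were removed in its place. UMIs were summed over each set of cells as CPM. Ratios carry exact conditional binomial 95% intervals, levels exact Poisson intervals and shares Clopper-Pearson intervals, all of which cover counting error only and say nothing about animals or libraries. With 1 library per group no test was made. The interval step was tested on simulated data. A gene counted as measured at 50 UMIs and 20 CPM in 1 library with UMIs in both, and differences were counted at 1.5-fold. Shares of cells were compared after thinning to 2000 UMIs (seed 1). Class and state were called on all UMIs for these shares.

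The 7 genes and the gene lists were chosen with earlier results of these data known. Genes named beside them were the 2 highest and 2 lowest log2 ratios of each list in CD8 cells and the 3 most alike by Pearson correlation, of which 1 is not reported here. Alternatives changed the filters, gates, scaling, averaging and depth. Removal of cells with stromal or tumour markers and removal of shared barcodes were added after seeing the data. Software was scanpy 1.11.5, pandas 2.3.3, scipy 1.17.1 and numpy 2.4.6 under Python 3.11.15. Promoter windows came from RefSeq, build GRCm38.p6.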

Additional observations from a re-analysis of the deposited data

Results flagged for a closer look

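Igfbp4 differed in direction between sets of cells. Its log2 ratio of treated to untreated was -1.28 in Lef1/Tcf7-positive CD8 cells and 0.31 in Lef1/Tcf7-negative CD8 cells, and it was -4.21 in Lef1/Tcf7-negative CD4 cells. The counting interval of each value lay on 1 side of 0, and the difference between the sets was not tested, since each group has 1 library. Without cells holding 2 stromal or tumour markers the same 3 ratios were -2.14, -1.51 and -1.93. What part those cells have in the opposite direction was not tested beyond these values.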

How the results depend on the processing

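Across the 12 alternatives planned for member ratios and the 2 added later, 74 of 74 counts of genes at least 1.5-fold lower were within 1.5 times of the reported count. That margin is wide for counts this small, so genes could join or leave a count within it. In all CD8 cells, where 4 genes were counted, Igfbp4 was also at least 1.5-fold lower in 10 of 11 settings and Foxp1 in 6 of 11. Of 560 member ratios, 393 stayed within the reported counting interval, or kept their sign for differences of mean deposited values, and 166 moved outside it. The 1 ratio past 1.5-fold that changed sign was Pdlim4 in negative CD4 cells, at 0.18 without cells of other lineages, and the cause was not tested. Satb1 in all CD8 cells ranged from -0.34 to 0.14 and was below 0 in 6 of 11 settings, and in the positive and negative sets of either class it was above 0 in every setting run. Foxp1 in negative CD8 cells ranged from -0.63 to 0.54. Igfbp4 in negative CD8 cells ranged from -2.88 to 2.20 and was below 0 in 9 of 13 settings. Dapl1 stayed at least 1.5-fold lower in every set and setting run, as did Txk outside negative CD4 cells and Tespa1 except in 1 of 13 settings of negative CD4 cells. With 10 UMIs as the only minimum, the share of measured genes at least 1.5-fold lower was 22.6% in all CD8 cells and 27.4% in all CD4 cells, and with a minimum of 100 CPM it was 12.01% and 12.7%. The mean deposited values give no fold, so no count was made from them. No paired analysis was possible because each group has 1 library. Depth limits the negative CD4 cells most, where Dapl1 had 19 and 3 UMIs.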

Other observations

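The genes of the state gate did not move alike in CD4 cells. In Lef1/Tcf7-positive CD4 cells Lef1 was 363 CPM untreated and 217 CPM treated (log2 ratio -0.74, -0.91 to -0.58), while Tcf7 was 307 and 359 CPM (0.23, 0.09 to 0.37). In positive CD8 cells Lef1 was 239 and 204 CPM (-0.23, -0.31 to -0.16) and Tcf7 was 228 and 209 CPM (-0.13, -0.20 to -0.05). Satb1 was higher and Dapl1 lower in the treated library in all these cells, as given above. The difference between the classes was not tested.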
